A study of Mus musculus with 6 samples.

Results

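Alpha-arrestins are adaptor proteins with the arrestin fold that bring ubiquitin ligases to membrane proteins and so send those proteins inward for sorting or breakdown. The 5 genes described here are Txnip, Arrdc1, Arrdc2, Arrdc3 and Arrdc4. They were chosen by gene symbol among 17180 genes with values on all 3 arrays of an array type, and 6 array features carried them. Values of 0 were taken as missing and no member feature held one. The set was proposed with results of the same arrays in view, so the ratios of treated over control of the 5 genes are given as a description and without a test.

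The study injected the surfactant poloxamer P-407, which elevates lipids in the blood, into female C57BL/6 mice that were 7 weeks old at the start. Treated mice received 0.5 g/kg into the abdomen at 3-day intervals for 96 days, and control mice received saline on the same schedule. All mice ate low-fat chow with 4.4% fat. Liver RNA of 12 treated mice was combined into 3 pools and that of 4 control mice into 1 pool, and the labels do not say which animals made up which pool. Each treated pool was set against the same control pool on 1 oligonucleotide array, after linear amplification of 0.5 ug of RNA, and on 1 cDNA array, after direct labelling of 10 ug. Treated RNA carried Cy5 and control RNA carried Cy3 on all 6 arrays. A dye effect of a gene and an effect of treatment cannot be told apart. The p-values within an array type measure only the spread between its arrays, and that between control animals was not measured. With 1 array of a type per treated pool, differences between pools and errors of amplification, labelling or array cannot be told apart. The values were read as log2 of treated over control, from the dyes and from the order in which the sample titles name the groups. Neither the direction nor the log base is stated for the values themselves, and with the opposite direction every sign here would turn. The files hold ratios and no intensities, so levels, signal over background and the liver identity of the samples could not be checked. Precision is limited by there being 3 arrays of each type.

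Txnip encodes the thioredoxin-interacting protein, which binds and inhibits thioredoxin and lowers glucose uptake by internalising glucose transporters. Loss of Txnip in mice causes combined hyperlipidemia, and Hyplip1 is listed by RefSeq as a synonym of the gene. In liver, Txnip and Arrdc4 are known targets of the glucose-sensing factors ChREBP and MondoA, which pair with Mlx. Arrdc1 is known from human cells for recruiting the ESCRT protein TSG101 to the plasma membrane to release microvesicles. Arrdc3 is known for the ubiquitination of beta-adrenergic receptors and for effects on energy use in mice. Arrdc2 is less studied, and in muscle it is known to respond to glucocorticoids.

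The array types covered different members. Txnip, Arrdc1, Arrdc2 and Arrdc4 had 5 features on the oligonucleotide array and none among the named features of the cDNA array. Arrdc3 had 1 feature on the cDNA array and none among those of the oligonucleotide array. No member could therefore be compared between array types, and Arrdc3 cannot be set against the other 4 on 1 scale.

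Txnip was lower in the treated pools on average, with a wide spread between pools. Its log2 ratio was -0.62 in pool 1, -0.046 in pool 2 and -0.42 in pool 3. Pools 1 and 3 lay well below 0 and pool 2 lay close to it. The mean was -0.36 ± 0.29 (SD, n = 3 pools), a 1.29-fold lower level in the treated pools. Only 1.49% of the 16871 genes of the oligonucleotide array had a larger SD than Txnip, while 11.5% had a larger absolute mean. The mean was -0.23 without pool 1, -0.52 without pool 2 and -0.33 without pool 3.

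Arrdc2 was the member with the lowest ratio on the oligonucleotide array. Its log2 ratio was -0.92 in pool 1, -0.97 in pool 2 and -0.70 in pool 3. All 3 pools lay far below 0. A larger SD than that of Arrdc2 was found for 15.5% of the genes of that array. The mean of -0.87 ± 0.14 (SD, n = 3 pools) is a 1.82-fold lower level in the treated pools, and it ranked 69th from the lowest of 16871 genes. Pool 2 had the lowest value of Arrdc2 and the highest of Txnip, so the difference of Arrdc2 minus Txnip was -0.30 in pool 1, -0.93 in pool 2 and -0.28 in pool 3.

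Arrdc4, which like Txnip restrains glucose uptake, was read by 2 oligonucleotide features that differed from each other. The first gave -0.17 in pool 1, 0.017 in pool 2 and -0.15 in pool 3. The second gave 0.062 in pool 1, -0.51 in pool 2 and -0.080 in pool 3. Pool 2 was the highest of the 3 on the first feature and the lowest on the second, and neither feature had the same sign in all pools. Averaged over both, Arrdc4 was -0.053, -0.24 and -0.11 in pools 1, 2 and 3, with a mean of -0.14 ± 0.098 (SD, n = 3 pools). The features alone averaged -0.099 ± 0.10 and -0.17 ± 0.30. Almost as many genes had a larger absolute mean (48.3%) as had a smaller one.

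Arrdc1 stayed close to 0 in every pool. Its log2 ratio was -0.11 in pool 1, -0.047 in pool 2 and -0.033 in pool 3, with a mean of -0.063 ± 0.041 (SD, n = 3 pools). Of all genes on the array, 73.2% had a larger absolute mean. Set against Arrdc1 in the same pools, Arrdc2 lay lower by a log2 difference of 0.80 ± 0.13 (Arrdc1 minus Arrdc2), and Txnip by 0.30 ± 0.27 (Arrdc1 minus Txnip).

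**Figure D1:**
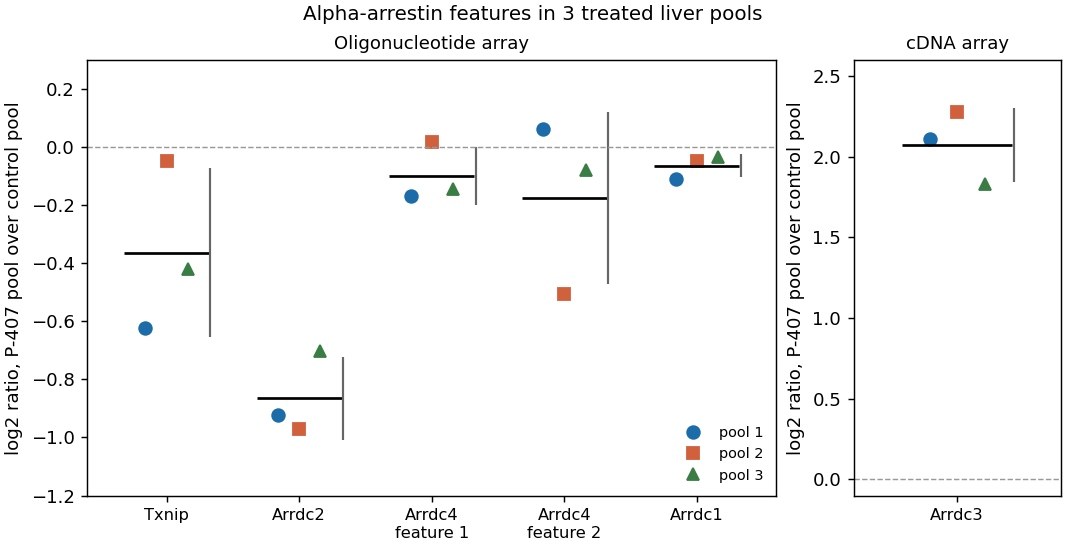
Log2 ratio of each alpha-arrestin feature (vertical axis, P-407 pool over control pool) for pools 1 to 3 on the oligonucleotide array and, on a scale of its own, the cDNA array. Black lines are means and grey bars are 1 SD over the 3 pools. All pools of Arrdc2 lie between -0.97 and -0.70, those of Txnip reach up to -0.046, and those of Arrdc3 lie between 1.83 and 2.28.

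**Figure D2:**
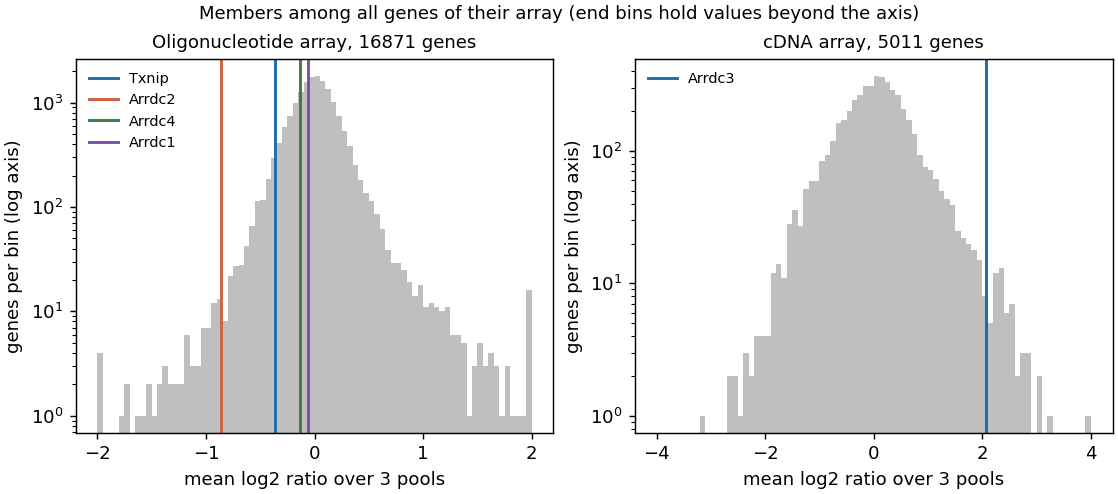
Mean log2 ratio over 3 pools (horizontal axis) of all genes on each array type as grey bars of gene counts on a log axis, with the members as coloured lines. Arrdc2 at -0.87 lies in the lower tail, Txnip at -0.36 on its shoulder, Arrdc4 and Arrdc1 near the centre, and Arrdc3 at 2.07 in the upper tail of the cDNA array.

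Arrdc3, read on the cDNA array alone, was higher in the treated pools. Its single feature gave log2 ratios of 2.11 in pool 1, 2.28 in pool 2 and 1.83 in pool 3. All 3 pools lay far above 0. Array 3 stood apart from the other cDNA arrays, with a correlation across genes of 0.338 with array 1 and 0.286 with array 2, against 0.702 between arrays 1 and 2. The mean was 2.07 ± 0.23 (SD, n = 3 pools), a 4.21-fold higher level in the treated pools. With 1 array left out the mean log2 ratio was 1.97 to 2.195, the highest of these without array 3. A larger SD was found for 63.3% of the 5011 genes of that array. On the same array 58 other genes had a mean at least as high. The limma fit called 0 genes on the cDNA array (0%) at an adjusted p under 0.05, with 1518 of 5011 at an unadjusted p under 0.05. An ordinary one-sample test without limma's shared prior called 1 gene, Gspt1, whose 3 values were equal. This gene was named after its values were seen.

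High ratios on the cDNA array were often smaller on the oligonucleotide array, which read the same RNA pools. Of the 58 genes with a cDNA mean at least that of Arrdc3, 55 were also measured on the oligonucleotide array, where their median log2 ratio was 0.34, ranging from -0.31 to 2.71. On the oligonucleotide array 13 of the 55 were at least 2-fold higher, 37 were called higher and 3 lower. Only 2 of the 55 had an SD on the cDNA array no larger than that of Arrdc3, and they stood at 1.84 and 1.88 on the oligonucleotide array. These genes were picked for high cDNA values. Over all 4702 genes on both array types, limma called a difference between array types for 11.4%, and 7 of the 55 were among them. With the pool as a block, 0 genes were called different, with 1317 at an unadjusted p under 0.05. What the oligonucleotide array would show for Arrdc3 is not known from these data.

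The promoter windows of Txnip, Arrdc4 and Arrdc2 are shown because the first of these holds the paired boxes of a glucose-response element, the second an E-box, and the third belongs to the member with the lowest ratio on the oligonucleotide array. Each runs from 250 bases before to 50 bases after the annotated start, 5′ to 3′ on the strand of the gene, from RefSeq on build GRCm38.p6. All 5 members were found in that table. The windows are chr3:96557707-96558006 on the plus strand for Txnip, chr7:68749189-68749488 on the minus strand for Arrdc4, and chr8:70839671-70839970 on the minus strand for Arrdc2. Capitals mark matches on either strand to 4 motifs. The E-box is searched as CACGTG, and the related box found in glucose-response elements is searched as CACGAG. The site preferred by FOXO transcription factors is searched as GTAAACA, and the CCAAT box by the letters of its name.
Txnip: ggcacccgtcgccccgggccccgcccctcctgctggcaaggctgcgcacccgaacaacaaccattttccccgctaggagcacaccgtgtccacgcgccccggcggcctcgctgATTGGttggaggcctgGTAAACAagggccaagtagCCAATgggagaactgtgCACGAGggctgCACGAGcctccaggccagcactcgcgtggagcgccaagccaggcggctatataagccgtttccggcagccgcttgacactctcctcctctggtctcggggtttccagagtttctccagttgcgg
Arrdc4: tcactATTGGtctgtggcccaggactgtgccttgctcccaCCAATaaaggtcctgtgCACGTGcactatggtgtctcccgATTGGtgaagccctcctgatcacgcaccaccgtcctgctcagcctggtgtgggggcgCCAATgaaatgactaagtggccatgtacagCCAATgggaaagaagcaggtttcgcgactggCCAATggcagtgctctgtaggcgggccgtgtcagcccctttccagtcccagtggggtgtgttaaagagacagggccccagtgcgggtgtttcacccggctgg
Arrdc2: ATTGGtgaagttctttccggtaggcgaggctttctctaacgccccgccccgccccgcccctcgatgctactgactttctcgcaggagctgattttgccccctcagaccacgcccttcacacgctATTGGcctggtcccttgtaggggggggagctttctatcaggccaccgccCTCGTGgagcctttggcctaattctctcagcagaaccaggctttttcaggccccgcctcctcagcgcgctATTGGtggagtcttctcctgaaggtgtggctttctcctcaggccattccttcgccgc

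Positions are counted from the annotated start as 0. In Txnip, glucose-response boxes began at -85 and -74, and together they form the paired motif, 2 copies of CACGNG with any 5 bases between them, which 16 of 32851 promoter windows in the table held (0.0487%). The single box CACGAG was in 6.47% of windows, CACGTG in 7.15% and GTAAACA in 3.65%. Txnip also held a FOXO site at -121 and CCAAT boxes at -137 and -102. Arrdc4 held an E-box at -193 and 6 CCAAT boxes, a number that 0.0791% of windows reached, although 37.4% of windows held at least 1. That share was computed for Arrdc4 alone, at the number of matches found in it. Arrdc2 held a glucose-response box at -77 and 3 CCAAT boxes. Arrdc1 held glucose-response boxes at -158 and -118, in an arrangement that did not match the paired motif. Of the 3 windows listed for Arrdc3, 2 overlap and held the same CCAAT box, and none held another of these motifs. The full glucocorticoid response element, AGAACA followed by any 3 bases and its own reverse complement (0.00913% of windows), and the D-box TTATGNAA (3.38%), both searched on both strands, had no match in any member. The paired motif overlaps the single boxes by construction, and a match says only that these letters are present.

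**Figure D3:**
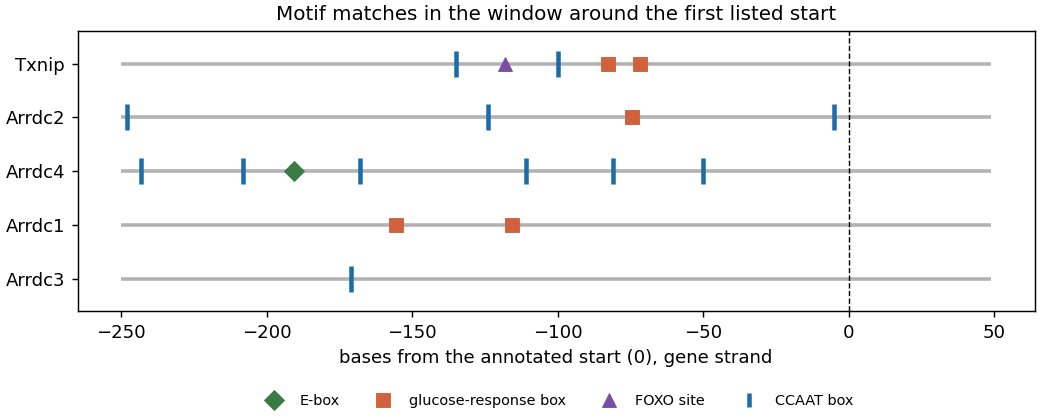
Motif matches in the window around the first listed start of each member, with bases from that start on the horizontal axis and 1 gene per row. Txnip is the member with 2 adjoining glucose-response boxes (beginning at -85 and -74), and Arrdc4 carries 6 CCAAT boxes.

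Across all genes of the oligonucleotide array, limma called 43.4% at an adjusted p under 0.05, 22% higher and 21.4% lower, and the counts of the gene lists stand beside these shares. Genes of the glucose-sensing pathway that governs Txnip and Arrdc4 were mostly lower or not called. Of 22 listed genes 20 were measured on the oligonucleotide array, with 10 lower, 1 higher and a median log2 ratio of -0.20, beside 0.0027 for all genes. Mlx, the shared partner of ChREBP and MondoA, was lower in each pool at -0.29, -0.35 and -0.33 (mean -0.32 ± 0.034, limma adjusted p = 0.00259). Khk, which phosphorylates fructose, lay at -0.57 ± 0.081 (adjusted p = 8.54e-04) and Me1, malic enzyme, at -0.78 ± 0.16 (adjusted p = 8.54e-04), while Acly, which makes cytosolic acetyl-CoA, lay at -0.62 ± 0.10 and the fatty acid elongase gene Elovl6 at -0.63 ± 0.14. The factor genes Mlxipl, for ChREBP, at -0.46, -0.39 and 0.26, and Mlxip, for MondoA, at 0.069, -0.11 and -0.14, were not called. The member that was higher was Hk2, a hexokinase, at 0.79 ± 0.37. Mlxipl, Mlxip and Hk2 were named after their values were seen. Mlx was at 0.22 ± 0.67 on the cDNA array and not called there.

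The glucocorticoid receptor and its targets, a list written for Arrdc2 and Arrdc3, held more lower than higher genes. All 16 were measured on the oligonucleotide array, with 9 lower, 2 higher and a median of -0.28. Without pool 2 or without pool 3, 1 was higher. Tsc22d3, a glucocorticoid-induced leucine zipper protein, was at -1.63, -1.37 and -1.06 in pools 1, 2 and 3 (mean -1.35 ± 0.28, limma adjusted p = 6.65e-04). Fkbp5, a chaperone that dampens the receptor, was at -0.76, -0.79 and -0.55 (mean -0.70 ± 0.13, adjusted p = 8.23e-04). Both genes lay below 0 in every pool, as did Arrdc2. They were named for small p-values, which favour genes with 1 sign in all pools, and a link to Arrdc2 was not tested. On the cDNA array, the array that carried Arrdc3, Tsc22d3 was at -1.09 ± 0.27 and Fkbp5 at -1.14 ± 0.34, both of the sign opposite to Arrdc3. Of the 10 list genes measured on the cDNA array, 5 had a mean above 0 like Arrdc3 and 5 below, with a median of -0.095 and none called. Tat, which breaks down tyrosine, was at -1.23 ± 0.26 and the factor gene Klf9 at -0.58 ± 0.11 on the oligonucleotide array, while the cell cycle inhibitor gene Cdkn1a rose by 0.69 ± 0.16. The receptor gene Nr3c1, named after its values were seen, rose by 0.20 ± 0.077.

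FOXO factors and genes that insulin represses had no common direction. Of 19 genes 16 were measured, 5 higher and 3 lower, with a median of 0.0045. Foxo1, the main hepatic FOXO factor, was lower at -0.51 ± 0.16 (limma adjusted p = 0.00274) and Pck1, of gluconeogenesis, at -0.73 ± 0.20. Pdk4, a brake on glucose oxidation, rose on the oligonucleotide array by 1.29 ± 0.24 and stood at -0.67 ± 0.25 on the cDNA array. That difference between array types had a limma adjusted p = 0.0176, and 0.128 with the pool as a block. The circadian clock and its outputs had 22 entries, of which Bmal1 and Arntl name the same gene. Of these 19 were measured, 9 lower and 4 higher, with a median of -0.010, and 2 were higher without pool 1. On the cDNA array 0 genes of any list were called. On the oligonucleotide array Noct (-2.40 ± 0.14), Dbp (-2.63 ± 0.37) and Usp2 (-1.73 ± 0.012) lay further below 0 than Arrdc2. Nfil3, a repressor of the clock output genes, rose there by 1.22 ± 0.11.

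**Figure D4:**
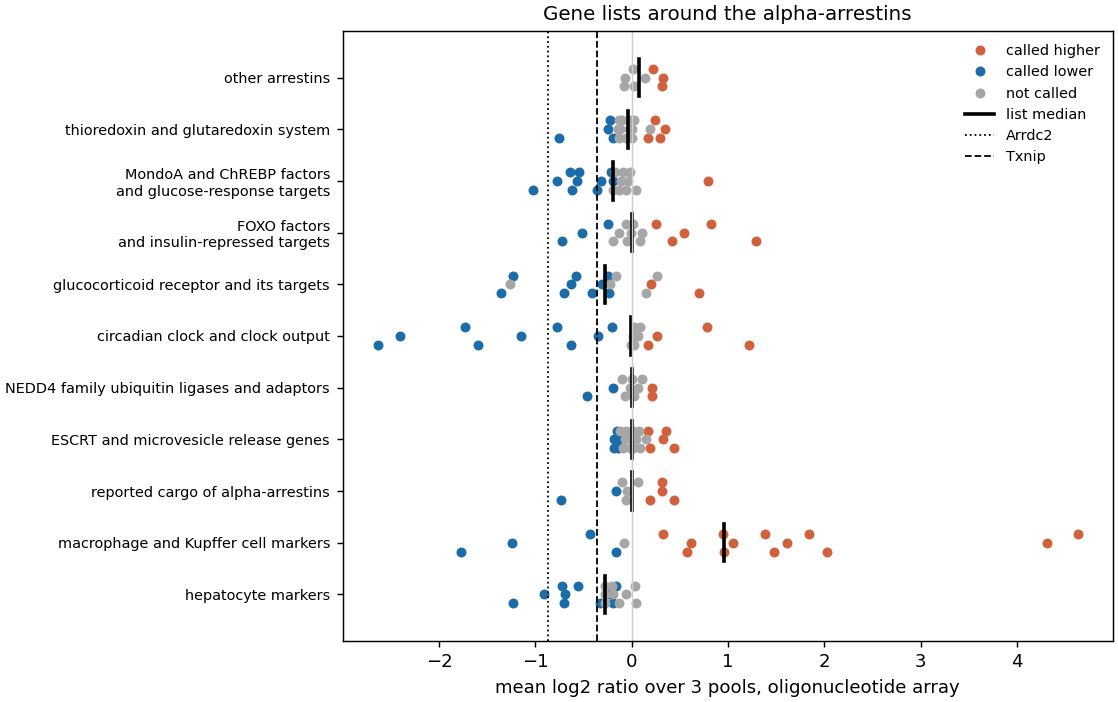
Mean log2 ratio over 3 pools on the oligonucleotide array (horizontal axis) of the genes of 11 lists, coloured by the limma call, with the list median as a black bar and the values of Arrdc2 (-0.87) and Txnip (-0.36) as vertical lines. The medians of the glucose-response and glucocorticoid lists, at -0.20 and -0.28, lie below 0, and those of the NEDD4, ESCRT and cargo lists lie near 0.

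The thioredoxin that Txnip binds was slightly higher. Txn1 was at 0.29, 0.29 and 0.29 in pools 1, 2 and 3 on the oligonucleotide array (mean 0.29 ± 0.0037, limma adjusted p = 0.00316) and at 0.25, 0.28 and 0.28 on the cDNA array. Its 3 pools were nearly equal, unlike those of Txnip. The 20 thioredoxin and glutaredoxin genes, all measured, held 4 higher and 4 lower with a median of -0.041, and 2 were lower without pool 1. Nxn, nucleoredoxin, rose by 0.35 ± 0.045, and Txnl1, a thioredoxin-like proteasome partner, by 0.24 ± 0.028. Ddit4, an mTOR inhibitor reported to bind Txnip, was lower at -0.75 ± 0.20 (adjusted p = 0.00152), as was the reductase gene Txnrd3 (-0.24 ± 0.053).

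Relatives with the arrestin fold had small ratios. Of 8 such genes, all measured, 3 were higher and 0 lower, with a median of 0.080. Arrb1, beta-arrestin 1, was at 0.33, 0.30 and 0.31 (mean 0.31 ± 0.017, limma adjusted p = 0.00255). Vps26c, of the retriever sorting complex, was at 0.32 ± 0.036 and Arr3, the cone arrestin, at 0.23 ± 0.13. Arrdc5, the remaining alpha-arrestin of the family, was at 0.075, 0.032 and -0.054, was not called, and was named after its values were seen. Arrb2, beta-arrestin 2, averaged -0.080 ± 0.045 on the oligonucleotide array and 0.21 ± 0.31 on the cDNA array, and neither was called. The cargo genes, whose products alpha-arrestins are reported to bind, held 4 higher and 2 lower among 10 measured of 13, with a median of 0.0080, and 1 was lower without pool 1 or without pool 2. The called glucose transporter genes of this list went in opposite directions. Slc2a2, for the main hepatocyte transporter GLUT2, was at -0.73 ± 0.12 (limma adjusted p = 6.95e-04). Slc2a1, for GLUT1, was at 0.44 ± 0.15 (limma adjusted p = 0.00387). On the cDNA array they were at -0.16 ± 0.20 and 0.13 ± 0.066, and neither was called. Slc2a3 (0.066 ± 0.024) and Slc2a4 (-0.10 ± 0.12), named after their values were seen, were not called on the oligonucleotide array. The receptor gene Notch1 rose by 0.32 ± 0.060.

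The ubiquitin ligases and ESCRT genes through which alpha-arrestins act showed small ratios on the oligonucleotide array. Of 11 NEDD4 family ligases and adaptors 2 were higher and 2 lower, and 0 were higher and 1 was lower without pool 1 or without pool 2. Hecw1 was at -0.47 ± 0.029 (limma adjusted p = 9.08e-04), while Wwp2 (0.21 ± 0.088) and Smurf2 (0.21 ± 0.077) were higher. Of 22 ESCRT genes 5 were higher and 5 lower. Leaving out pool 1, 2 or 3 left 0, 2 and 1 of them lower, and 3 higher without pool 1. Vps37c, of the complex that holds Tsg101, rose by 0.36 ± 0.036 (adjusted p = 0.00195), and Chmp2b, of the scission filament, by 0.33 ± 0.071. Tsg101 itself, the partner of Arrdc1, was at 0.044, -0.032 and 0.029 and was not called, and it was named after its values were seen. On the cDNA array, where none was called, the medians were 0.31 for 5 NEDD4 family genes and 0.45 for 9 ESCRT genes. Wwp2 there was at 2.66, 2.63 and 0.10 in pools 1, 2 and 3, so that pool 3 lay far from the others.

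By the smallest root mean square difference over the 3 oligonucleotide arrays, the genes closest to Arrdc2 were Tdo2, which breaks down tryptophan, at 0.0516, Apoa5, an apolipoprotein of triglyceride clearance, at 0.0600, and Hes6, a transcriptional cofactor, at 0.0681. In all, 6 genes lay within 0.1 of Arrdc2 and 2 within 0.1 of Txnip. Those closest to Txnip were Eif4ebp3, a translation repressor, at 0.0651, Vmn1r217, a vomeronasal receptor, at 0.0906, and Slc16a4, a monocarboxylate transporter relative, at 0.102. Eif4ebp3 had -0.66, -0.14 and -0.38 in pools 1, 2 and 3, so that pool 2 was nearest 0 as in Txnip. That likeness follows from picking the gene by its closeness to Txnip in these pools.

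Markers of other cells also changed in the same livers. Among 18 measured markers of macrophages and Kupffer cells, 13 rose and 4 fell, with the sum of their log2 ratios at 20.3, 16.3 and 17.6 in pools 1, 2 and 3. Gpnmb, of lipid-laden macrophages, stood at 4.63 ± 0.069 and Trem2, a lipid receptor, at 4.31 ± 0.19, while Cd163, of resident macrophages, stood at -1.77 ± 0.13. Resident markers did not share 1 direction, since Cd5l rose by 1.48 ± 0.17 and Clec4f by 0.33 ± 0.053, both named after their values were seen. Of 19 hepatocyte markers 10 were lower and 0 higher, with sums of -7.62, -7.14 and -6.40, and Arg1, of the urea cycle, stood at -0.70 ± 0.031. Some genes stand on more than 1 list, so the list counts are not separate observations. Among the lower hepatocyte markers, Tat is also on the glucocorticoid list and Pck1 on the FOXO list. Alb, Fgb and Ahsg had nearly the same values as each other in every pool, within 0.001 of Alb, as did 10 genes in all, Alb included and no alpha-arrestin among them. Without these 3 markers the sums were -7.46, -6.52 and -4.70, and the cause of the shared values was not tested. Stellate, endothelial, bile duct, lymphoid and neutrophil markers held 8 higher and 0 lower among 17 measured, with 1 lower without pool 3. The 8 were stellate, neutrophil or lymphoid markers. With all 3 pools no endothelial or bile duct marker was called. On the cDNA array 5 of 11 had a mean above 0 and 6 below, with Acta2 (-0.20) and Ms4a1 (-0.64) among the latter, and none was called. Of 15 hepatocyte markers there, 10 had a mean below 0 and 5 above. Of 13 macrophage and Kupffer cell markers, 9 had a mean above 0 and 4 below, and none of either list was called. The array types did not always share a sign. Otc was at -0.16 on the oligonucleotide and 0.37 on the cDNA array, and C1qa at 1.06 and -0.23. Both were named after their values were seen. Fewer cells of a type and less RNA per cell cannot be told apart in whole liver, and the part of cell makeup in the ratios of the alpha-arrestins was not tested.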

How the data were processed

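Liver RNA was measured on 6 two-channel Agilent arrays. The deposited values are log2 ratios of treated over control per feature and array, as the authors processed them, and neither the normalization nor the log base is stated per the labels. They reach 6.34, above the 4.82 that a log10 ratio of 16-bit signals could reach, and were read as log2. On a natural log every fold would be larger. Direction was read from the dyes and titles per the labels and is not stated for the values.

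Features with 1 gene symbol in the platform annotation entered (18658 of 22575 oligonucleotide and 7410 of 13482 cDNA features). Zeros were taken as missing (1257 to 1277 per oligonucleotide array, 3421 to 5332 per cDNA array). The median of the non-zero features was subtracted within each array, and features of a gene were averaged. Genes with values on all 3 arrays of a type were tested against 0 with limma 3.58.1 in R 4.3.3, with Benjamini-Hochberg adjustment over all genes and a threshold of 0.05. The difference between array types was fitted over the 6 arrays. The control pool counts as 1 sample. Pool numbers pair the array types because each RNA was split, per the series' design text. Deviations of the same pool correlated at 0.0619, 0.0730 and 0.0745 across 4702 genes, and those of unlike pools at -0.0179 to -0.0553. Deviations are taken from the mean of 3 pools, which pushes values of unlike pools below 0. All these correlations are close to 0, so the pairing rests on the design text alone.

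On simulated ratios, limma recovered 50 of 50 genes shifted by 0.5 on the oligonucleotide array. It made 18 false calls among the unshifted genes, out of 16871 simulated in all. On the cDNA array it recovered 0 of 50 shifted by 0.5, 7 of 50 shifted by 1 and 37 of 50 shifted by 2. There it made 4 false calls among the unshifted genes, out of 5011 simulated in all. The simulated noise was normal, independent between arrays and of the variance limma estimated for each gene. It held no error of the shared control pool or of dye, so it does not give the rate of false calls in the real arrays. On the real cDNA array 0 genes were called, although 58 others had a mean at least that of Arrdc3. Alternatives were no centring, zeros as values, the median over features, 2 of 3 arrays, each pool left out, no shared prior and the pool as a block. Members and gene lists were chosen with earlier results of these data known. Genes named from a list are among those with the 5 smallest p on the oligonucleotide array, with exceptions stated. Python 3.11.15, pandas 2.3.3 and matplotlib 3.10.9 made tables and plots. Promoter sequences are from RefSeq (GRCm38.p6).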

Additional observations from a re-analysis of the deposited data

How the results depend on the processing

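The mean log2 ratios of the 5 genes were recomputed 42 times under these alternatives, among them each Arrdc4 feature alone, which was chosen after seeing the data. All 42 kept their sign and lay within 1 SD of the reported mean. The 1 SD result was largely fixed in advance and says little about robustness. The shared prior, the handling of zeros, the median over features and the required number of arrays left every member mean unchanged. Leaving out 1 pool cannot move such a mean by 1 SD. Only the values without centring and those of single Arrdc4 features could have fallen outside. On the oligonucleotide array 7318 genes were called, and 4025 to 6244 with 1 pool left out. Without the shared prior 40 were called there and 1 on the cDNA array, against 0 by limma, which also called 0 with any pool left out. For the difference between array types 537 genes were called, 290 with zeros kept as values and 0 with the pool as a replicate block, and 0 to 1077 with 1 pool left out (0 without pool 1 or pool 2). The cause was not tested. List counts without each pool, added after seeing the data, moved by over 1.5 times in 15 of 72 cases. The files hold no intensities, so what signal over background limits is unknown. Without intensities no filter on dim features could be tried.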
